A study of Arabidopsis thaliana and Cardamine hirsuta and Capsella rubella with 102 samples.

Results

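Kon is a natural accession of *A. thaliana*, and the transcripts described here are those of its seedlings 1 h after flg22, a peptide from bacterial flagellin. Seedlings 12 days old in liquid medium received 1 µM flg22 or a mock solution, and the 3 flg22 and 3 mock libraries of Kon at 1 h make up 6 of the 102 libraries of the series. Each replicate number stands for 1 independent experiment in which flg22 and mock wells were treated side by side, and a library holds whole seedlings pooled from several wells. The plants carry no transgene or induced mutation, so flg22 and mock seedlings share 1 inbred genotype. All genes of the Kon count table were taken as members, and the seedlings of Can-0, Gy-0, Kn-0, and No-0, which had the same treatments in 6 libraries each, serve only to show where Kon differs. Col-0 values are set beside them without a test, because its reads were shorter and came from another instrument.

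As background, flg22 is bound by the receptor kinase FLS2 together with its coreceptor BAK1, and cytoplasmic kinases such as BIK1 carry the signal to the NADPH oxidase RBOHD, calcium channels, and MAP kinase cascades. Within minutes to hours these steps lead to broad changes in transcription in which WRKY transcription factors bind W-box elements of promoters. The response is known as pattern-triggered immunity, and it comes with slower growth of seedlings.

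The Kon libraries held 19775412 to 20202230 counts on genes after flg22 and 17658278 to 20377569 after mock. Counts that fell on no gene, on several genes or several places made up 9.15% to 10.1% of the flg22 and 7.62% to 8.78% of the mock totals. The first principal component took 71.5% of the variance and separated flg22 from mock libraries. The second took 16.8% and ordered the libraries of both treatments by experiment, with replicate 1 at one end and replicate 3 at the other. The summed level of 7 shoot markers was 20522 to 31472 CPM (counts scaled to library size) after flg22 and 20500 to 35273 CPM after mock, and 0 of the 7 were differentially expressed. For 8 root markers the sums were 1504 to 2418 CPM after flg22 and 1210 to 2254 CPM after mock, most of it from PYK10. EXPA7 was the 1 member called (log2 fold change 1.34 ± 0.17, standard error), and it was not called with total-count scaling. SCR, another root marker, fell by just under 2-fold (-0.99 ± 0.18, adjusted p = 0.0015 by edgeR). The shoot marker MYB60 also fell by less than 2-fold (-0.82 ± 0.18, adjusted p = 0.0043 by edgeR). Both organs were thus measured in all 6 libraries. In bulk RNA of whole seedlings, fewer cells of a type and less RNA per cell cannot be told apart.

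A differentially expressed gene (DEG) had an adjusted p under 0.01 in the quasi-likelihood test of edgeR and a change of more than 2-fold, with the replicate number as a block. Of 19618 genes tested in Kon, 2537 were higher (12.9%) and 1466 lower (7.47%) after flg22. The other 7798 of the 27416 genes in the table had too few counts for a test. All 4003 DEGs had the same direction in 3 of 3 replicate pairs, and for 3796 of them the flg22 and mock values did not overlap, against 66.9% and 37.7% of all genes tested, counts that selection by a paired test largely fixes. Changes were larger upward. The median log2 fold change was 2.15 among the genes that rose and -1.37 among those that fell, and 763 genes rose by over 8-fold while 40 fell by as much. Genes that rose held 32.4% to 33.9% of the counts after flg22, against 7.16% to 7.55% after mock. Those that fell held 1.08% to 1.28% after flg22 and 3.96% to 4.27% after mock.

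How many genes count as lower depends on the scaling and on the pairing. TMM scaling, used throughout, puts the median gene at a log2 fold change of -0.06, whereas scaling by total counts puts it at -0.49. The share of DEGs that were higher was 63.4% with TMM and 32.9% with total counts. Without the replicate block, 1974 genes were higher and 596 lower. Log2 fold changes below are from the TMM fit with the block, with their standard errors after the ± sign. Counts of called group members are to be read beside 12.9% higher and 7.47% lower over all genes tested.

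**Figure D1:**
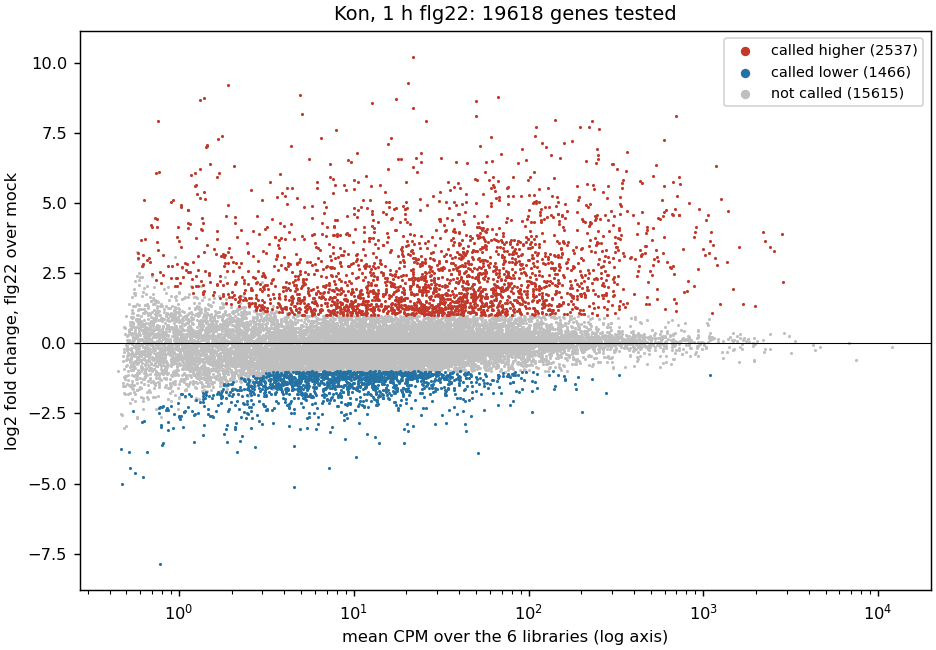
Log2 fold change (flg22 over mock, y axis) against the mean CPM of the 6 Kon libraries (x axis, log scale) for the 19618 genes tested. Red points are the 2537 DEGs that were higher and blue points the 1466 that were lower; the upward changes reach farther from 0 than the downward ones.

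The 12 largest rises among genes with at least 10 counts on average in both treatments started from low levels in mock seedlings. PP2-B13 (AT1G56240), annotated as a phloem protein 2 of the F-box type, had 933, 1471, and 1777 CPM after flg22 and 3.25, 3.22, and 10.3 CPM after mock. PROPEP3 (AT5G64905), the precursor of a Pep peptide that is released as a danger signal, had 297, 529, and 557 CPM after flg22, against 1.15, 1.35, and 3.43 CPM after mock. WRKY30 (AT5G24110), a WRKY transcription factor, had 408, 470, and 451 CPM after flg22 and 1.62, 1.49, and 3.43 CPM after mock. In each of these genes the lowest flg22 library lay far above the highest mock library. The log2 fold changes were 8.10 ± 0.30 for PP2-B13, 7.93 ± 0.27 for PROPEP3 (adjusted p = 2.1e-08), and 7.72 ± 0.27 for WRKY30. CYP82C3 (AT4G31950), a cytochrome P450 close to the enzyme that makes a cyanogenic indole compound, rose by 7.71 ± 0.26, and NHL10 (AT2G35980), a widely used early marker of elicitation, by 7.71 ± 0.28. The other members of the 12 largest rises were the ARM-repeat gene AT5G37490 (7.97), the glutathione transferase GSTU12 (7.65), AT4G28085 (7.39), the AP2-domain gene AT1G22810 (7.34), the lectin gene AT1G53080 (7.25), the protein phosphatase 2C gene AT1G07160 (7.21), and AT5G28610 (7.14).

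Upstream windows of 3 of these genes are shown because 11 of the 12 hold W-box letters. The windows cover the 250 bases before the annotated gene start in the Col-0 reference TAIR10.1 (RefSeq), not in Kon, and are written 5′ to 3′ on the strand of the gene. Capitals mark TTGACC or TTGACT, found on either strand and counted 1 by 1. PROPEP3 lies at chr5:25939562-25940080 on the plus strand, and its window is chr5:25939312-25939561. The windows of WRKY30 (chr5:8154711-8154960, minus strand) and CYP82C3 (chr4:15454833-15455082, plus strand) also hold several matches. That of BBX14 (chr1:25710990-25711239, minus strand), one of the 12 largest falls, is set beside them and holds none.
PROPEP3: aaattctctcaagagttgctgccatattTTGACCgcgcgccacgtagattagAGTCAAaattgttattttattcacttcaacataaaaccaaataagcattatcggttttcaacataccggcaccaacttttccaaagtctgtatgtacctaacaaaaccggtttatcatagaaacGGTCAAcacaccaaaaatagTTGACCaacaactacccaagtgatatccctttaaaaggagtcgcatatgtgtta
WRKY30: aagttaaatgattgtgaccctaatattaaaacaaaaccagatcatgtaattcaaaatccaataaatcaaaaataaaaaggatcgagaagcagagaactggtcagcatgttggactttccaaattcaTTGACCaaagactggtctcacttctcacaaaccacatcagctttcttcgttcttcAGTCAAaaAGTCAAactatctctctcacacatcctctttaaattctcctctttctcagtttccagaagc
CYP82C3: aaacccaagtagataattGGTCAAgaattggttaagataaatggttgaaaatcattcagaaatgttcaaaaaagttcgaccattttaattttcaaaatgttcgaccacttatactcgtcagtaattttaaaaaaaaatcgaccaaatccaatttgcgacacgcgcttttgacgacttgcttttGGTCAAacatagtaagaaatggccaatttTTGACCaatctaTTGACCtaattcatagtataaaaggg
BBX14: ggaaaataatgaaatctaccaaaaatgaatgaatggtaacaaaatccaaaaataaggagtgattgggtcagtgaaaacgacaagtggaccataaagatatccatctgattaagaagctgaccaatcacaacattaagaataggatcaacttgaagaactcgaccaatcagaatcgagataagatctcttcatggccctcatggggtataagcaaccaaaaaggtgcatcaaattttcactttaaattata

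PROPEP3 and CYP82C3 held 4 matches each and WRKY30 held 3. In CYP82C3 the last 3 lie within 67 bases of the gene start, and in PROPEP3 the last 2 lie within 74 bases of it. Of the genes that rose, 46.4% held at least 1 match and 16% at least 2, and of those that rose over 8-fold 56.6% and 22.9% did. Genes that fell had shares of 21.9% and 2.8%, and all tested genes with a window had 28.8% and 6.25%. Of the 12 largest falls, BEE2 was the 1 gene with a match. The letters are a description of the reference sequence, and whether any factor binds there in Kon was not measured.

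**Figure D2:**
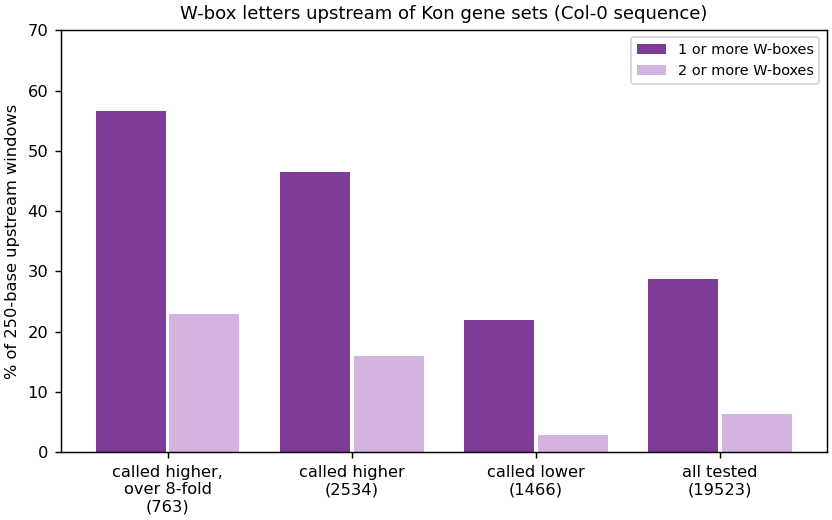
Percentage of upstream windows of 250 bases (y axis) with at least 1 (dark bars) or at least 2 (light bars) W-box matches, for Kon genes called higher over 8-fold, all called higher, called lower, and all tested; numbers of windows are in parentheses. The dark bars stand at 56.6%, 46.4%, 21.9%, and 28.8%.

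Some genes that rose were at or near 0 in mock seedlings, and for these the ratio of summed counts is given with its exact 95% interval, which covers counting error only. The F-box gene AT4G04480 had 30.1, 54.9, and 45.8 CPM after flg22 and 0, 0.0481, and 0.047 CPM after mock. Its 2229 counts after flg22 and 2 after mock make a scaled ratio of 1445 with an interval of 399 to 11936, so that the rise is large but its size is poorly fixed. A second F-box gene, AT4G22030, had a ratio of 699 (273 to 2568), the phospholipase-like gene AT5G11140 of 456 (195 to 1407), CYP715A1 of 421 (164 to 1546), and AT1G06135 of 211 (90.1 to 652). These 5 had the highest flg22 levels among 44 DEGs with at most 3 counts in each mock library. In the other direction, 9 DEGs had at most 3 counts in each flg22 library. Among them the RING-type gene AT4G10150 had no count in any flg22 library and 0.673, 1.59, and 2.4 CPM after mock, which makes it at least 8.88-fold lower against the floor of 3 counts per library. The auxin-induced gene SAUR20 had 6 counts in all after flg22 and 98 after mock, a ratio of 12.6 (5.59 to 35.2) in favour of mock. SAUR65 had 2 and 81 counts, AT2G34010 4 and 84, and AT3G09450 2 and 72, with flg22 before mock in each.

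By gain in CPM, which is not corrected for gene length, the leading genes were already well expressed in mock seedlings. The lectin gene AT3G16530 had 4404, 5473, and 6019 CPM after flg22 and 312, 435, and 330 CPM after mock. ERD15 (3.29 ± 0.16), the glutathione transferase GSTF6 (3.41 ± 0.22), the lectin gene AT3G15356 (3.97 ± 0.18), and BCB (3.66 ± 0.18), a blue copper protein, followed. The corresponding losses were in LHCB4.2, the asparagine synthetase gene ASN2 (-1.76 ± 0.21), the expansin gene EXPA1 (-2.45 ± 0.17), the germin-like gene GER1 (-1.14 ± 0.19), and TDT (-1.62 ± 0.17), a dicarboxylate transporter of the vacuole. LHCB4.2 and GER1 were no longer DEGs without the block (adjusted p = 0.036 and 0.015), and GER1 was not one without replicate 1 (-0.95). GSTF6 and the lectins have close homologs, so reads that fit more than 1 copy are missing from their counts.

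FLS2 (AT5G46330), the flg22 receptor, had 113, 66.9, and 59.9 CPM after flg22 and 52.1, 30.7, and 34 CPM after mock. Replicate 1 was highest in both treatments, the flg22 and mock values did not overlap, and each pair rose (1.02 ± 0.14, adjusted p = 0.00018). Pair 3 rose least, and without replicate 3 the value was 1.14. The change sits at the 2-fold limit and was no DEG without the block (1.04, adjusted p = 0.037), without replicate 1 or 2 (both 0.97), or with total-count scaling (0.59). FRK1 (AT2G19190), a receptor-like kinase gene used as a marker of the response, had 62.6, 25.3, and 21.3 CPM after flg22 and 4.08, 4.91, and 1.08 CPM after mock. It rose by 3.45 ± 0.32 without overlap, and again replicate 1 was highest after flg22.

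Of 14 genes for receptors of other patterns and danger signals, 10 rose and 1 fell, with a median log2 fold change of 2.13 beside -0.06 over all genes tested. LYK4, a part of the chitin receptor, had 131, 134, and 132 CPM after flg22 and 9.31, 9, and 10 CPM after mock. CERK1, the signalling kinase of that receptor, had 446, 557, and 368 CPM after flg22 and 41.2, 33.3, and 37.5 CPM after mock. Neither gene overlapped between treatments. LYK5 (3.85 ± 0.24), the Pep receptors PEPR1 (3.09 ± 0.27) and PEPR2 (2.02 ± 0.33), the receptor-like proteins RLP23 (3.13 ± 0.26) and RLP30 (2.28 ± 0.18), and the elongation factor Tu receptor EFR (2.24 ± 0.15) were among those that rose. The wall-associated kinase WAK2 was the 1 lower member, with means of 27.8 CPM after flg22 and 53.4 CPM after mock, and that call was lost without the block, without replicate 2, with DESeq2 size factors, with DESeq2, and with limma-voom. FER, the RALF receptor, had a value of 0.21 ± 0.17 and DORN1, the ATP receptor, 0.51 ± 0.28.

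Coreceptors and the kinases that bind them rose in 7 of 9 cases (median 2.76) and cytoplasmic kinases in 5 of 8 (median 2.48), with none lower in either group. BAK1 had 407, 414, and 380 CPM after flg22 against 64.9, 67.4, and 65.6 CPM after mock (2.60 ± 0.14). SOBIR1, the adaptor of receptor-like proteins, rose by 2.76 ± 0.14, SERK4 by 3.18 ± 0.18, and the negative regulators BIR1 and BIR2 by 3.09 ± 0.20 and 2.68 ± 0.18. SERK1 and SERK2 did not pass the test, with values of -0.40 ± 0.23 and -0.51 ± 0.15. BIK1 rose by 3.06 ± 0.16 and its relatives PBL1 and PBL2 by 2.74 ± 0.14 and 3.26 ± 0.20, while BSK1 stood at 0.16 ± 0.14.

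**Figure D3:**
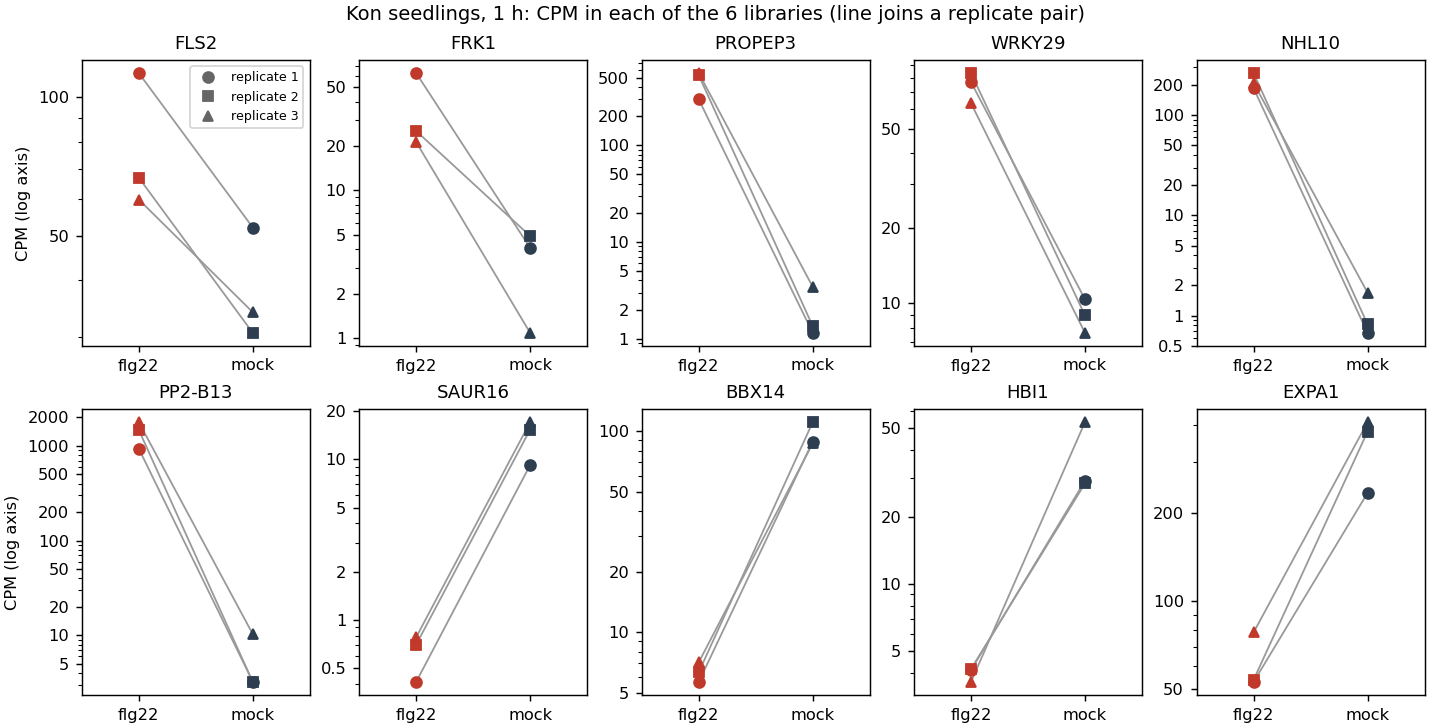
CPM (log axes) of 10 genes in the 6 Kon libraries, flg22 at the left and mock at the right of each panel, with a line joining each replicate pair. In every panel the flg22 and mock values do not overlap; PROPEP3 spans 297 to 557 CPM after flg22 and 1.15 to 3.43 CPM after mock, and BBX14 spans 5.66 to 7.08 CPM after flg22 and 87.2 to 111 CPM after mock.

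Downstream of the receptors, 10 of 15 genes of the MAP kinase cascades and their phosphatases rose and none fell (median 1.30). MPK11 changed most, at 163, 150, and 130 CPM after flg22 and 4.24, 1.15, and 4.7 CPM after mock (5.53 ± 0.34). MKK4 (3.33 ± 0.16), the phosphatase AP2C1 (2.43 ± 0.15), MPK3 (2.08 ± 0.16), and MPK4 (1.69 ± 0.15) followed. MPK6 and MKK5, which act beside MPK3 and MKK4, had values of 0.95 ± 0.13 and 0.93 ± 0.15 and stayed below the 2-fold limit, which MKK5 passed without replicate 2. Of 21 calcium and reactive oxygen genes, 14 rose and 1 fell (median 1.54). RBOHD, the oxidase behind the apoplastic oxidative burst, had 581, 705, and 574 CPM after flg22 and 44.5, 38, and 30.9 CPM after mock (4.04 ± 0.18), whereas RBOHF had a value of 0.59 ± 0.15. The calmodulin-like gene CML42 rose by 5.62 ± 0.19 and the calcium-dependent kinase genes CPK28 and CPK5 by 3.29 ± 0.15 and 1.18 ± 0.16. The member that fell was CNGC2, a cyclic nucleotide-gated calcium channel, with 18.7, 17.9, and 17.2 CPM after flg22 and 78.8, 60.8, and 79.9 CPM after mock (-2.02 ± 0.15). CNGC4, which is known to form a channel with CNGC2, had a value of -0.01 ± 0.15.

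Ubiquitin ligases that restrain or relay the signal rose in 7 of 10 cases (median 2.71). They included ATL31 (5.70 ± 0.22) and the PUB22, PUB23, and PUB24 triplet of negative regulators (4.50 ± 0.16, 5.62 ± 0.26, and 5.07 ± 0.30). Among secreted peptide precursors 3 of 8 rose (37.5%) and 1 fell (12.5%), beside 12.9% and 7.47% of all genes tested. PROPEP1 and PROPEP2 rose by 4.41 ± 0.21 and 4.83 ± 0.23 beside PROPEP3, while PROPEP4 stood at 0.43 ± 0.21, PROPEP5 at -0.97 ± 0.44, and PROPEP6 at 0.29 ± 0.19. RALF23, whose peptide dampens the response through FER, had 19.8, 27.6, and 47.2 CPM after flg22 and 46.7, 80.7, and 106 CPM after mock. The treatments overlapped across experiments but each pair fell (-1.32 ± 0.14, adjusted p = 3.2e-05 with the block and 0.032 without it).

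WRKY genes formed the largest family among the transcription factors examined. Of 71 listed, 61 were tested, 30 rose, and 2 fell (median 1.03). Next to WRKY30, large rises were seen for WRKY55 (6.52 ± 0.28), WRKY41 (5.19 ± 0.58), WRKY22 (4.98 ± 0.16), WRKY28 (4.74 ± 0.22), WRKY6 (4.70 ± 0.19), and WRKY53 (4.31 ± 0.20). WRKY33, which controls camalexin genes, rose by 4.29 ± 0.30, and WRKY29 had 76.7, 83.3, and 63.2 CPM after flg22 and 10.4, 8.95, and 7.62 CPM after mock (3.05 ± 0.15). The 2 that fell were WRKY49 (-3.27 ± 0.62) and WRKY60 (-1.17 ± 0.26). Both calls were lost without replicate 2, and that of WRKY60 also without the block. WRKY60 is known to act with WRKY18 (1.25 ± 0.17) and WRKY40 (4.26 ± 0.37), which rose.

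Other transcription factor families moved the same way for the most part. Among ZAT, MYB, and NAC factors 16 of 20 rose and none fell (median 2.23), led by ZAT11 (6.71 ± 0.22), MYB15 (5.92 ± 0.18), which drives lignin genes in immunity, and ZAT10 (4.58 ± 0.29). Of 13 ethylene response factors tested, 9 rose and 1 fell (median 2.21). ERF6 (4.49 ± 0.29), ERF5 (3.07 ± 0.19), and ERF1 (2.13 ± 0.25) rose, DREB26 fell (-2.88 ± 0.21), and ORA59, a hub of the joint jasmonate and ethylene response, had a value of 0.28 ± 0.19.

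Jasmonate genes rose at the levels of synthesis, turnover, and repression. Of the 13 JAZ repressors, which hold back jasmonate responses, 8 rose and none fell (median 2.06). JAZ1 had 453, 567, and 265 CPM after flg22 and 41, 12.8, and 15.8 CPM after mock (4.31 ± 0.34). JAZ5 (5.75 ± 0.30), JAZ8 (5.62 ± 0.47), JAZ10 (3.49 ± 0.26), and JAZ9 (2.06 ± 0.19) rose too, whereas JAZ3, JAZ4, and JAZ11 had values of 0.19 ± 0.15, -0.19 ± 0.32, and -0.38 ± 0.18. Of 16 genes of jasmonate synthesis and turnover, 9 rose (median 1.62). They cover steps of synthesis from the lipoxygenases to OPR3, namely LOX3 (3.81 ± 0.24) and LOX4 (6.80 ± 0.32), AOS (1.77 ± 0.22), AOC1 and AOC3 (3.80 ± 0.17 and 5.28 ± 0.24), and OPR3 itself (3.04 ± 0.18). CYP94C1, which oxidises the active hormone, rose by 3.37 ± 0.22. LOX2, the major lipoxygenase of leaves, went the other way in each pair, with 41, 16.2, and 8.51 CPM after flg22 and 60, 32.3, and 21.4 CPM after mock. Its value of -0.94 ± 0.17 did not reach the 2-fold limit, and it passed both with total-count scaling and without replicate 1.

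Salicylic acid genes rose in 12 of 20 cases (median 1.74), and none fell. The regulators EDS1 (2.21 ± 0.15), PAD4 (3.02 ± 0.15), SAG101 (2.59 ± 0.16), CBP60G (2.97 ± 0.19), and SARD1 (2.74 ± 0.18) were among them. The exporter EDS5 had 128, 140, and 94.2 CPM after flg22 against 14.2, 10.1, and 5.36 CPM after mock (3.68 ± 0.20). ICS1, the synthase at the entry of the pathway, rose less (1.25 ± 0.21) and was no DEG without the block (adjusted p = 0.017) or with total-count scaling. The late markers PR1 and PR2 had values of -0.41 ± 0.26 and 0.70 ± 0.44. In ethylene synthesis and signalling 5 of 17 genes rose (29.4%) and 1 fell (5.88%, near the 7.47% over all genes), with a median of 0.46. The ACC synthase genes ACS2 (2.92 ± 0.33), ACS6 (3.18 ± 0.29), and ACS7 (3.40 ± 0.31) rose, and EIN2 fell (-1.07 ± 0.19), a call lost without the block and without replicate 3.

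Most genes for tryptophan-derived defence compounds rose, and most of those for methionine-derived ones fell. Of 23 genes of indole glucosinolates and camalexin, 17 rose and 1 fell (median 2.73). CYP71A13, which makes a camalexin intermediate, had 156, 163, and 75.1 CPM after flg22 and 3.21, 2.94, and 4.09 CPM after mock (5.20 ± 0.29). PAD3, the last camalexin enzyme, rose by 4.39 ± 0.27, CYP81F2, which modifies indole glucosinolates, by 5.92 ± 0.30, and the myrosinase and transporter genes PEN2 and PEN3 by 3.95 ± 0.17 and 3.03 ± 0.20. The regulator MYB51 had 386, 558, and 451 CPM after flg22 and 17.5, 18.3, and 27.8 CPM after mock (4.47 ± 0.21). Its relative MYB34 was the member that fell, with 11.8, 15.9, and 15.8 CPM after flg22 and 29.1, 40.1, and 34 CPM after mock (-1.25 ± 0.15). Flg22 and mock libraries did not overlap in either regulator.

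Of 12 aliphatic glucosinolate genes tested, 9 fell and 1 rose (median -1.53). MYB28, the main regulator, had 8.38, 8.9, and 7.34 CPM after flg22 and 38.3, 32.6, and 19 CPM after mock (-1.82 ± 0.19), and MYB29 fell by 3.70 on the log2 scale. CYP79F1, which commits chain-elongated methionine to the pathway, had 5.3, 2.05, and 4.81 CPM after flg22 and 59.9, 18.9, and 25.5 CPM after mock (-3.04 ± 0.23). CYP83A1 (-1.62 ± 0.15), MAM1 (-1.41 ± 0.15), and SOT18 (-1.30 ± 0.15) fell too. SOT17, a sulfotransferase of the pathway, was the 1 member that rose (1.39 ± 0.16), and this call was lost without the block (adjusted p = 0.029) and with total-count scaling. Without the block 5 of the 12 fell and none rose.

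Phenylpropanoid genes rose at the entry of the pathway. PAL1 (2.41 ± 0.16) and PAL2 (2.34 ± 0.16), C4H (1.39 ± 0.16, lost with total-count scaling), 4CL1 (2.27 ± 0.15), and 4CL5 (3.57 ± 0.16) were among 7 of 18 that rose, and PAL3 fell (-2.09 ± 0.25; median of the group 0.49). The cinnamoyl-CoA reductase gene CCR2 had 333, 475, and 461 CPM after flg22 and 3.76, 5.53, and 4.75 CPM after mock (6.50 ± 0.18), while CCR1, which serves lignin made in development, had a value of 0.49 ± 0.14. None of 10 flavonoid genes rose, beside 12.9% of all genes tested, and 1 fell (10%, near the 7.47% over all genes). MYB111 fell (-2.64 ± 0.48, lost without the block), and chalcone synthase, CHS, had 73.4, 56.1, and 65 CPM after flg22 and 129, 124, and 121 CPM after mock. Its value of -0.95 ± 0.14 was just under the 2-fold limit, and it passed with total-count scaling and without replicate 1.

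Secretion and cell wall defence was the group with the highest median (3.18), and 16 of its 17 genes rose. PEN1 (4.13 ± 0.17) and its partners SNAP33 (3.31 ± 0.15) and VAMP722 (1.60 ± 0.15), which fuse vesicles at the plasma membrane, the exocyst gene EXO70B2 (4.61 ± 0.18), MLO6 (5.55 ± 0.21), and the peroxidase genes PRX33 and PRX34 (3.18 ± 0.18 and 3.05 ± 0.20) were among them. PMR4, the callose synthase of defence, was the member that was not a DEG (0.75 ± 0.17).

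**Figure D4:**
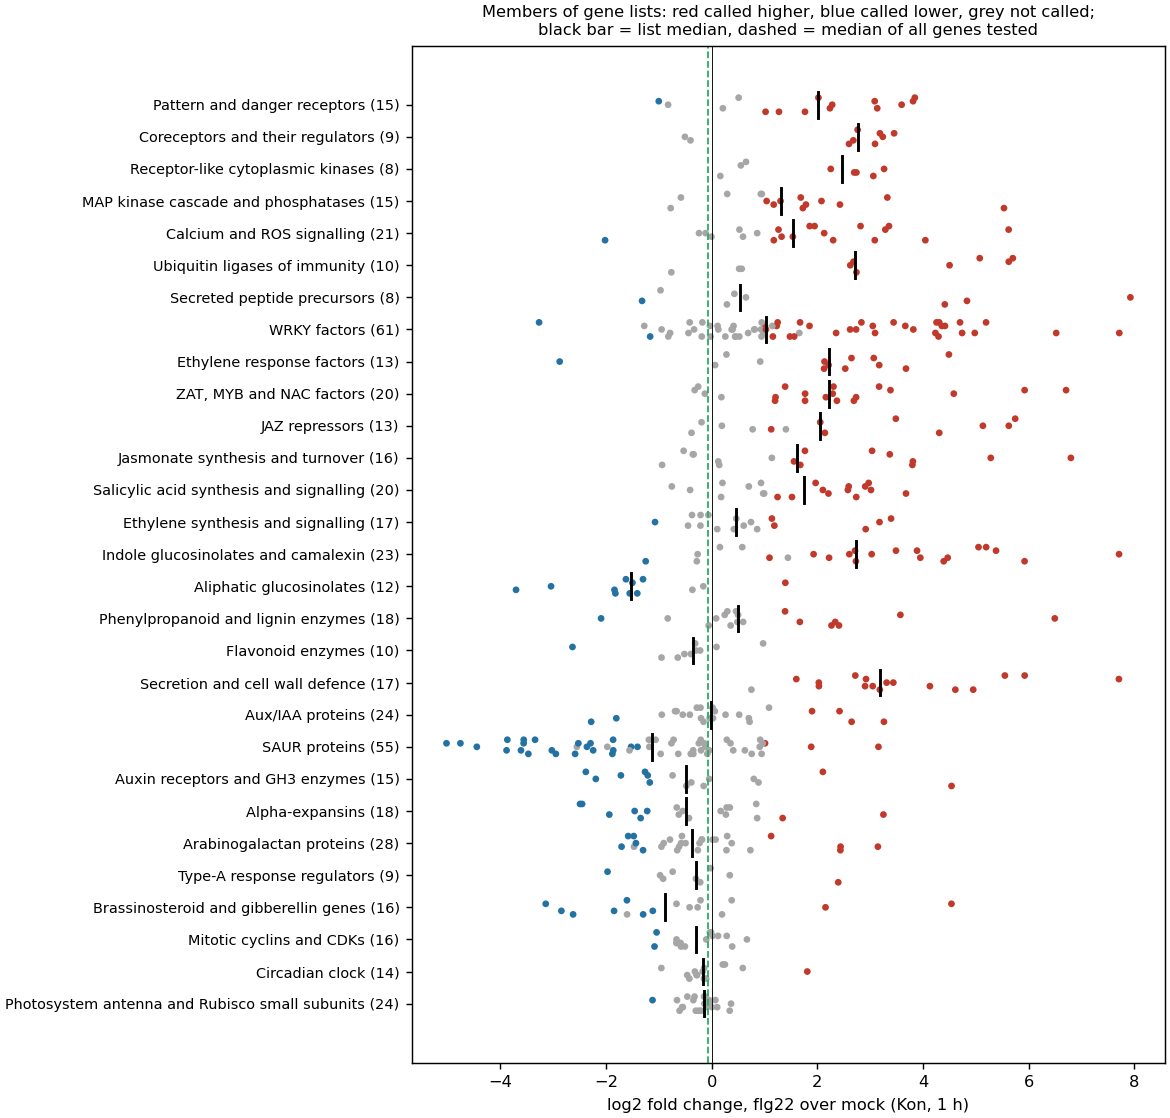
Log2 fold change (flg22 over mock, x axis) of each tested member of the gene groups (y axis), with red points for genes called higher, blue for called lower, grey for not called, black bars for group medians, and a dashed line for the median of all genes tested. Immune signalling and secretion groups lie mostly to the right of 0, whereas SAUR, aliphatic glucosinolate, and brassinosteroid and gibberellin groups lie mostly to the left.

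Genes of auxin-driven growth were among those that fell. SAUR16, a small auxin-up RNA gene, had 0.411, 0.702, and 0.78 CPM after flg22 and 9.23, 15.3, and 17.1 CPM after mock, and its fall of 4.45 on the log2 scale was the largest among genes with at least 10 counts on average in both treatments. Of 79 SAUR genes 55 were tested, 22 fell, and 3 rose (median -1.14), and without the block 13 fell and 1 rose. SAUR6 (-3.56 ± 0.25), SAUR1 (-3.34 ± 0.27), and SAUR14 (-2.95 ± 0.19) fell, while SAUR59 rose, at 118, 180, and 267 CPM after flg22 and 12.6, 19.7, and 32.1 CPM after mock (3.16 ± 0.15). Many SAUR genes are near-identical neighbours with few counts, so single values are uncertain. The auxin carrier PIN3 had 22.4, 29.8, and 31.6 CPM after flg22 and 100, 150, and 134 CPM after mock (-2.19 ± 0.14). PIN4 (-1.72 ± 0.14) and PIN7 (-2.38 ± 0.15) fell with it, as did the receptors AFB1 (-1.17 ± 0.15) and AFB5 (-1.26 ± 0.14), while the receptor TIR1 had a value of -0.48 ± 0.14. GH3.2, which conjugates auxin to amino acids, rose by 4.54 ± 0.23. Of the 24 Aux/IAA repressors 4 rose (16.7%), among them IAA10 (3.26 ± 0.15) and IAA19 (2.65 ± 0.15), and 2 fell (8.33%), IAA3 (-1.81 ± 0.21) and IAA29 (-2.28 ± 0.42), shares near those over all genes tested.

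HBI1, a bHLH factor that promotes growth and restrains immunity, had 4.11, 4.15, and 3.64 CPM after flg22 and 29.1, 28.3, and 53.3 CPM after mock (-3.14 ± 0.23), and its relative BEE2 fell by 3.24 on the log2 scale. Of 16 brassinosteroid and gibberellin genes, 7 fell (43.8%, beside 7.47% of all genes) and 2 rose (12.5%, near the 12.9% over all genes). Their median was -0.89. The receptor BRI1 (-1.30 ± 0.14), the synthesis genes CPD (-1.61 ± 0.14) and BR6OX2 (-1.85 ± 0.19), and BES1 (-1.11 ± 0.14) fell. So did GA3OX1 (-2.85 ± 0.22) and GA20OX2 (-2.62 ± 0.54), of the pathway to active gibberellins, whereas GA2OX2 (2.15 ± 0.22) and GA2OX6 (4.54 ± 0.17), which inactivate them, rose. Among 18 alpha-expansins, which loosen cell walls, 6 fell (33.3%) and 2 rose (11.1%, near the share over all genes). EXPA1 had 53, 53.9, and 78.3 CPM after flg22 and 235, 381, and 411 CPM after mock, and EXPA12 rose by 3.25 ± 0.56. Of 28 arabinogalactan protein genes 5 fell (17.9%) and 4 rose (14.3%, near the share over all genes), with AGP17 at -1.71 ± 0.17 and AGP1 at 2.44 ± 0.16, and without the block 2 fell and 3 rose.

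Of the 12 largest falls, 3 were of B-box genes, which encode zinc finger factors known from light responses. The family was not among the gene lists, and its other members were not counted. Selection by the size of the fall largely fixes that these 3 fell without overlap. BBX14 had 5.66, 6.32, and 7.08 CPM after flg22 and 88.9, 111, and 87.2 CPM after mock (-3.91 ± 0.17). BBX15 (-3.12 ± 0.18) and BBX17 (-3.67 ± 0.29) fell as well, with no overlap between flg22 and mock libraries. The remaining large falls were those of the kinase gene CIPK20 (-4.06 ± 0.24), the NPH3-domain gene AT3G19850 (-3.54 ± 0.19), the carotenoid dioxygenase gene NCED4 (-3.43 ± 0.22), and the AP2-domain gene ESE3 (-3.15 ± 0.27).

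Of 24 photosystem antenna and Rubisco small subunit genes, LHCB4.2 was the 1 DEG (4.17%, beside 20.4% of all genes tested), and the group's median was -0.14. Among 16 mitotic cyclin and CDK genes, CYCA1;1 (-1.08 ± 0.21) and CYCB1;2 (-1.04 ± 0.25) fell (12.5%, beside 7.47% of all genes), and both calls were lost without the block and without replicate 1. Of 9 type-A response regulators of cytokinin signalling, ARR3 rose (2.40 ± 0.20) and ARR16 fell (-1.97 ± 0.39), the fall being lost without the block and without replicate 2, and the 22.2% called is near the 20.4% over all genes. Among 14 clock genes, TOC1 was the 1 DEG (7.14%), at 71.1, 82.8, and 73.7 CPM after flg22 and 23, 20.7, and 21 CPM after mock (1.81 ± 0.14). UBQ10, often used as a reference gene, had 2400, 2030, and 2865 CPM after flg22 and 838, 726, and 1276 CPM after mock (1.39 ± 0.15, lost with total-count scaling), while PP2AA3 and TIP41 had values of 0.10 ± 0.14 and -0.05 ± 0.14.

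The flg22 effect in Kon was then set against the mean effect in Can-0, Gy-0, Kn-0, and No-0. The difference itself was tested over 19980 genes and 30 libraries, without a replicate block. By edgeR, 8 genes had a larger effect in Kon (0.04%) and 0 a smaller one (0.0%). Larger and smaller, here and below, mean a higher or lower signed log2 fold change, also where a gene fell in other accessions. At an unadjusted p under 0.05 there were 654 and 415 genes (in all 5.35% of those tested), and DESeq2 called 52 and 7. With the replicate number as a block within each accession, 93 genes were called larger and 13 smaller, and the 8 genes were all among the 93. These 8 come from the fit that leaves out the replicate pairing, and each group holds 3 libraries. Leaving out replicate 1, 2, or 3 in all accessions left 0, 0, and 1 of them (659, 537, and 1438 genes at an unadjusted p under 0.05), with ADF5 as the gene that remained. CPM values in this comparison come from a joint scaling of the accessions.

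ADF5 (AT2G16700), of the actin-depolymerizing factor family, lies at chr2:7244500-7246069 on the plus strand. It had 138, 165, and 285 CPM in Kon after flg22 and 21.9, 28.3, and 47.2 CPM after mock. In the 12 flg22 libraries of the other accessions it ranged between 26.7 and 55.3 CPM (median 35.7), and in their 12 mock libraries between 15.1 and 48.6 CPM (median 24.1). Kon thus lay above all others after flg22 and within their range after mock. The effect was 2.59 in Kon, against 0.38 in Can-0, 0.54 in Gy-0, 1.06 in Kn-0, 0.38 in No-0, and 0.25 in Col-0, and the difference was 2.04 ± 0.35 (adjusted p = 0.0081).

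GH3.9 (AT2G47750, chr2:19560127-19563960, minus strand) belongs to the family that conjugates hormones to amino acids. It had 8.61, 12, and 12.6 CPM in Kon after flg22 and 0.56, 0.425, and 0.0926 CPM after mock. The other accessions had 1.08 to 6.05 CPM after flg22 and 0.597 to 2.62 CPM after mock, so that Kon was above them after flg22 and below them after mock. The difference in effect was 3.52 ± 0.54 (adjusted p = 0.0066), with 4.88 in Kon. Its size is uncertain, because the Kon mock levels were low and replicate 3 lay under the floor of 3 counts per library. Among Can-0, Gy-0, Kn-0, and No-0 the effect lay between -0.35 in Kn-0 and 2.61 in No-0. Col-0, outside the test and scaled on its own, was lower after flg22, with means of 3.84 CPM against 5.78 CPM after mock. CKX5 (AT1G75450, chr1:28314458-28318375, minus strand) encodes a cytokinin oxidase, which breaks cytokinins down. It had 43.8 to 55.4 CPM in Kon after flg22, against 7.81 to 24.8 CPM in the other accessions, and 1.24 to 1.99 CPM in Kon after mock, against 0.881 to 3.22 CPM in the others. Its effect was 4.91 in Kon, 3.13 in Can-0, 3.08 in Gy-0, 2.46 in Kn-0, 3.74 in No-0, and 1.16 in Col-0 (difference 1.83 ± 0.31, adjusted p = 0.0081).

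EP3 (AT3G54420), a class IV chitinase gene at chr3:20145905-20148266 on the plus strand, had 201, 267, and 284 CPM in Kon after flg22 and 9.91, 7.03, and 8.71 CPM after mock. Kn-0 came nearest, with a mean of 154 ± 30.9 CPM after flg22 and 10.6 ± 1.28 CPM after mock (SD, n = 3 each). Can-0, Gy-0, and No-0 had means of 13.7 ± 5.71, 7.08 ± 1.82, and 7.87 ± 1.07 CPM after flg22 and 2.88 ± 0.45, 0.98 ± 0.20, and 1.05 ± 0.47 CPM after mock (SD, n = 3 each). Col-0, outside the test and scaled on its own, had means of 70.1 CPM after flg22 and 5.77 CPM after mock. Levels thus varied between accessions in both treatments, which was not tested. The difference in effect was 1.91 ± 0.32 (adjusted p = 0.0081).

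CRK22 (AT4G23300), a cysteine-rich receptor-like kinase gene at chr4:12181625-12184774 on the plus strand, rose in Kon and had negative values in 3 of the 4 other accessions. It had 24, 15.9, and 9.22 CPM in Kon after flg22 and 9.23, 7.97, and 4.26 CPM after mock, and was higher after flg22 in each pair (1.16 ± 0.18), although the treatments overlapped across experiments and the Kon effect was no DEG without the block (adjusted p = 0.057). The effect was -1.86 in Gy-0, -1.02 in Kn-0, -2.51 in No-0, -0.55 in Col-0, and 0.07 in Can-0 (difference 2.53 ± 0.40, adjusted p = 0.0079). CRK22 belongs to a tandem cluster of similar genes on chromosome 4, so its counts may miss shared reads.

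The glutaminyl cyclase gene QC (AT4G25720) and the kelch-repeat gene AT4G25710 lie next to each other on the minus strand of chromosome 4, at chr4:13099812-13102594 and chr4:13098102-13099625. QC had 157, 217, and 185 CPM in Kon after flg22, against 32.8 to 149 CPM in the other accessions, and 14.2 to 18.7 CPM in Kon after mock, against 14 to 20.7 CPM in the others. AT4G25710 had 76.8, 108, and 86.1 CPM in Kon after flg22, within the 22.1 to 99 CPM of the other accessions but for the highest Kon library, and 11 to 16 CPM in Kon after mock, against 10.4 to 29 CPM in the others. In both genes No-0 came next to Kon or above it, with effects of 3.00 for QC and 3.01 for AT4G25710 beside 3.55 and 2.72 in Kon. The differences from the mean of the 4 accessions were 1.38 ± 0.23 and 1.40 ± 0.23 (adjusted p = 0.0081 for both). AT5G54780 (chr5:22248369-22252191, minus strand), which encodes a protein with a Rab-GAP domain, had 76.6 to 85 CPM in Kon after flg22, against 23.3 to 41 CPM in the others, and 12.7 to 14.4 CPM in Kon after mock, against 9.39 to 16.7 CPM in the others (difference 1.46 ± 0.22, adjusted p = 0.0066). In the annotation 5 of the 8 genes (GH3.9, EP3, CKX5, AT5G54780, and QC) overlap a neighbour, and whether reads of those neighbours entered the counts was not tested.

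**Figure D5:**
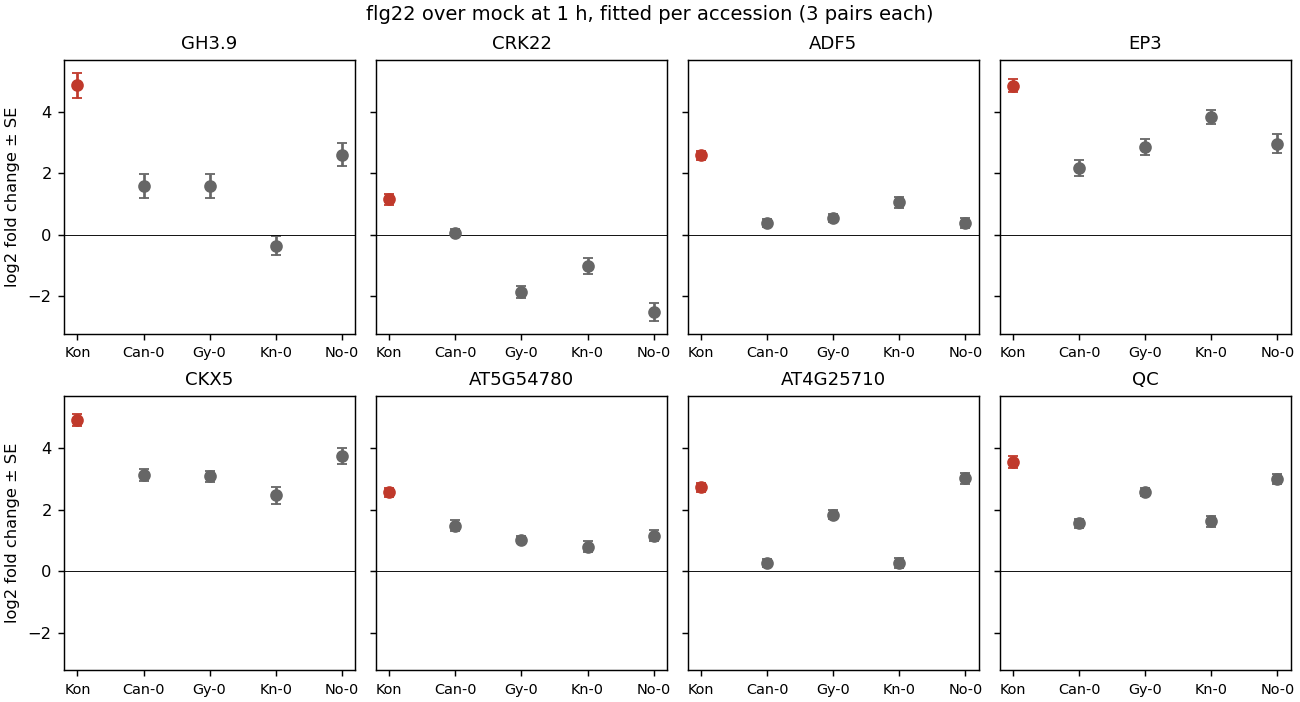
Log2 fold change (flg22 over mock, y axis) in Kon (red) and in Can-0, Gy-0, Kn-0, and No-0 (grey) of the 8 genes whose effect differed between Kon and the mean of the others; bars are standard errors of each accession's fit to 3 pairs. ADF5 stands at 2.59 in Kon and at 0.38 to 1.06 in the others, and AT4G25710 is higher in No-0 (3.01) than in Kon (2.72).

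Several listed genes were called in this comparison only with the replicate block, and they are named after their values were seen. JAZ9 had an effect of 2.06 in Kon, against -0.09 in Can-0, 1.04 in Gy-0, 0.53 in Kn-0, and 1.44 in No-0 (difference 1.35 ± 0.23, adjusted p = 0.0039 with the block and 0.29 without it). WRKY75 differed by 2.04 ± 0.34 (0.0032 with the block and 0.084 without it), GH3.2 by 2.05 ± 0.26 (0.00042 and 0.029), and NHL10 by 2.15 ± 0.39 (0.0056 and 0.03). AGP16, an arabinogalactan protein gene, went the other way. It had 61.1, 74.8, and 122 CPM in Kon after flg22 and 50.1, 62.5, and 97 CPM after mock, an effect of 0.29, beside 2.06 in Can-0, 1.91 in Gy-0, 1.73 in Kn-0, and 2.49 in No-0 (difference -1.73 ± 0.19, adjusted p = 9.4e-05 with the block and 0.25 without it).

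For the JAZ group as a whole, the median effect was 2.06 in Kon, 0.72 in Can-0, 1.38 in Gy-0, 0.49 in Kn-0, 1.06 in No-0, and 0.39 in Col-0. The medians of jasmonate synthesis and turnover were 1.62 in Kon and 0.83, 0.85, 0.64, 0.95, and 0.67 in the same order of accessions. Differences between these medians were not tested. Secretion and cell wall defence had medians of 3.18 in Kon and 2.45 to 3.08 elsewhere. Kon had the highest median in each of these groups, but not in all groups. Coreceptors had medians of 2.76 in Kon and 3.16 in Can-0, and salicylic acid genes 1.74 in Kon and 2.24 in Can-0. For WRKY factors the medians were 1.03 in Kon and 1.31 in No-0. Genes called higher numbered 2537 in Kon and 2639 in No-0, and those called lower 1466 in Kon and 1382 in No-0. None of these contrasts was tested.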

How the data were processed

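RNA of whole seedlings was sequenced from polyadenylated, strand-marked libraries as single reads of 150 bp. The authors called bases with CASAVA 1.8.2, trimmed adapters with cutadapt 1.5, mapped reads with TopHat2, counted them per gene with HTSeq 0.6.0 at default settings on TAIR10, and deposited raw counts, 1 table per accession. Reads that fit several places or genes are therefore missing from genes with close copies. The study mapped accession reads to the Col-0 genome and to genomes corrected for each accession's variants and went on with the Col-0 mapping. Which of them gave the deposited counts is not given in the sources used here, and sequence differences between Kon and Col-0 may lower the counts of divergent genes. The lines that name no gene, 7.62% to 10.1% of a Kon library, were left out. All sample columns were used (0 left out).

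Genes averaging 10 or more counts per library were kept, TMM factors were computed, and p-values of edgeR's quasi-likelihood test (edgeR 4.0.16, R 4.3.3) were adjusted by Benjamini-Hochberg over all genes kept. Kon was fitted on its own 6 libraries, blocked by replicate number, and the difference from Can-0, Gy-0, Kn-0, and No-0 on 30 libraries without it, as in the study's designs. The standard error was taken as the size of the log2 fold change over the root of its F statistic. The pairing comes from the study, and deviations from the group means correlated within pairs at 0.708, 0.26, and 0.49. Between unmatched replicate numbers they correlated at -0.68 to 0.23. The highest, flg22 replicate 3 with mock replicate 2, was close to the 0.26 of pair 2. No libraries were duplicates. Floors are 3 counts per library, ratios of few counts have Clopper-Pearson intervals, and both cover counting error only. Alternatives were DESeq2 1.42.0, limma-voom (limma 3.58.1), RLE size factors, total-count scaling (chosen after seeing the data), other filters, no block or a block, leaving out each replicate, and leaving out Can-0. Both tests were tried on simulated counts, in which 200 genes averaging 50 or more counts were changed by 2 on the log2 scale. Apart from these, each gene had 1 mean over all libraries, with no effect of experiment, accession, or flg22. The Kon test recovered 97.5% of the changed genes and the test of the difference 76%. In these simulated counts the latter thus missed some differences of that size, and recovery in the real libraries was not measured.

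The text names the 12 largest rises and falls among DEGs that averaged 10 or more counts in each treatment and moved 1 way in 3 pairs, the 5 highest DEGs with at most 3 counts in each library of the other treatment, the 5 largest gains and losses in CPM, members of gene lists, the 8 genes with the largest differences between accessions, and 4 markers. Members and lists were chosen with earlier results of these data known, and 16 list names without a match of their own in the annotation were left out. Symbols are from RefSeq for TAIR10.1, which matched 26719 of 27416 genes, and upstream windows were read from its genome. Of the 27416 genes, 26718 had a window.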

Additional observations from a re-analysis of the deposited data

Results flagged for a closer look

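The 8 genes whose flg22 effect differed between Kon and the mean of Can-0, Gy-0, Kn-0, and No-0 are listed here because the difference itself was tested. On the log2 scale the difference was 3.52 for GH3.9, 2.53 for CRK22, 2.04 for ADF5, and 1.91 for EP3. It was 1.83 for CKX5, 1.46 for AT5G54780, 1.40 for AT4G25710, and 1.38 for QC. Each difference kept its sign under the 9 alternatives tried. Adjusted p-values did not stay on 1 side of the threshold for any of them. For ADF5 they lay between 1.4e-06 and 0.95 and 5 of 9 alternatives kept the call, whereas for QC they lay between 1.5e-05 and 1 and 2 of 9 kept it. In Kon itself all 8 were higher after flg22 in 3 of 3 pairs. Their choice by a larger effect in these same libraries largely fixes that. Of all genes tested in Kon, 66.9% had the same direction in 3 pairs.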

How the results depend on the processing

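The number of genes higher in Kon after flg22 stayed within 1.5 times of 2537 under every alternative, with 1974 without the replicate block as the lowest value other than 1897 with total-count scaling, and 2436 to 2697 when a replicate was left out. The number lower was 596 without the block, all of them among the 1466, and 3872 with total-count scaling, and 1364 to 1599 when a replicate was left out. Genes with a larger effect in Kon numbered 93 with the replicate block, 52 with DESeq2, 5 without a count filter, 3 with RLE size factors, 3 without Can-0, 1 with total-count scaling, and 0 to 1 when a replicate was left out, beside 8 (by edgeR at an unadjusted p under 0.05, 401 without replicate 1 and 330 without replicate 2). Genes with a smaller effect numbered 13 with the replicate block and 7 with DESeq2, and 0 otherwise, where edgeR at an unadjusted p under 0.05 had 207 to 819. The scaling by total counts moves all genes down by 0.43 on the log2 scale, and the cause of the other shifts was not tested. Of 180 genes followed through 11 alternatives of the Kon test, 161 kept their call in each of them, as did 3 of the other 5 genes, which had no fit at the minimum of 50 counts, and 0 reversed. Losses of the others that are named stand beside their values. Genes with a mean under 10 counts entered only the fit without a count filter, which gave 2567 higher and 1553 lower genes.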
